A study of Mus musculus with 9 samples.

Results

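The respiratory chain of the mitochondrial inner membrane hands electrons from NADH and succinate to oxygen through complexes I to IV, and the proton gradient built on the way drives ATP synthase, counted here as complex V. Most of its subunits are encoded in the nucleus and imported, while a small core is made inside the mitochondrion. In the gut, the chain serves the absorptive enterocytes, which carry many mitochondria. The symbols Cox4 to Cox8 stand for cytochrome c oxidase, which is complex IV, and not for the cyclooxygenases that NSAIDs inhibit.

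The nuclear genes of the chain were taken by symbol, as every row of the count table that begins with Nduf followed by a, b, c, s or v and a digit, is one of Sdha to Sdhd, or begins with Uqcr, Cox4 to Cox8 or Atp5. This gave 84 of 23955 genes, of which 37 fall in the Nduf group of complex I, 4 in complex II, 8 in complex III, 18 in complex IV and 17 in the Atp5 group of complex V. The rule uses symbols and no measured value, but it was chosen with earlier results of these data known. Ndufa4 and its relative Ndufa4l2 carry complex I names, although NDUFA4 is known to act in complex IV, and Atp5s and Atp5sl carry complex V names but encode no subunit. The genes of the mitochondrial genome and the complex III gene Cyc1 are not caught by the symbols, and no row of the table carries a mitochondrial (mt-) symbol.

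RNA was measured in epithelial organoids, which are gel-grown cultures of gut epithelium, in 3 groups of 3 biological replicates, without a statement of which mice they share. MIN organoids came from the normal adjacent gut of APCmin/+ mice, Adenoma organoids from their adenomatous polyps, and Sulindac organoids from such polyps treated with the NSAID sulindac, whose dose and duration are not given in the sources used here. All 3 groups therefore carry the mutated Apc allele of the strain, and the age and sex of the mice are not given. The comparisons ask how the genes differ between polyp and normal epithelium, and how they differ in polyp cultures after NSAID treatment. The libraries held 30881206 to 48412477 counts. Values are CPM (read counts scaled to a common TMM-adjusted library total), and a count of 3, taken as the floor, corresponds to 0.0647 to 0.0989 CPM. A gene was called when the quasi-likelihood test of edgeR, adjusted over all genes tested, passed an FDR of 1%.

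One library stood apart before any group was compared. In Adenoma replicate 3, 76 of the 80 members tested lay above the mean of the other Adenoma replicates, by a median of 0.40 on the log2 scale, whereas the median over 13883 genes was 0.02. Its ratio to the others ran with transcript length, with a Spearman correlation of -0.55 across 13730 genes that share this library, and the 978 genes with transcripts under 1000 bases had a median ratio of 0.42. The members are short, with a median transcript of 849.5 bases, so results with Adenoma libraries are also given without this one. Sulindac replicate 2 was also high for 75 of the 80 members, by a median of 0.17. The epithelial markers Epcam, Cdh1, Krt8, Krt18 and Vil1 were abundant in every library, but their sum was 4468 to 6258 CPM in MIN, 2904 to 3734 in Adenoma and 4008 to 4612 in Sulindac. In Adenoma over MIN, 3 of these 5 genes were lower and 0 higher, with a median log2 fold change of -0.87, and the part of this difference in the results was not tested. The leukocyte, mesenchymal, muscle and endothelial lists each summed to at most 4.06 CPM. In the mesenchymal list Col1a2 and Col3a1 stood at 0 in every library, but 1 of its 2 genes tested was higher in Adenoma than in MIN. The mesenchymal sum was 0.388 to 0.757 CPM in MIN, 1.97 to 2.38 in Adenoma and 0.828 to 1.08 in Sulindac, and its part in the results was not tested. The leukocyte sum was 3.41 to 4.06 CPM in MIN and at most 0.702 in the other groups, mostly from Itgam, and its part in the results was not tested.

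Respiratory chain transcripts were less abundant in Adenoma than in MIN organoids, with called genes in each of the 5 complexes. Of the 80 members that passed the low-count filter, 27 (33.8%) were lower in Adenoma and 0 were higher by edgeR's test, while 46 had an unadjusted p under 0.05. Among all 13744 genes tested, 20.1% were lower and 18.5% were higher. In CPM, 45 members lay lower in Adenoma without overlap of the groups and 2 higher, against 31.8% and 30.7% of all genes. The median log2 fold change was -0.41 over the members and -0.01 over all genes, and 67 of the 80 members had a negative value. Without Adenoma replicate 3, 53 of the 80 members were lower and 0 higher, against 19.6% lower of all genes, and the median was -0.56. Without MIN replicate 2, and without Adenoma replicate 1, 17 were lower, against 16.1% and 17.3% of all genes. DESeq2 called 36 lower and 0 higher, against 23.6% lower and 21.5% higher of all genes. The summed level of all members was 15862 ± 916 CPM in MIN, 11276 ± 1638 in Adenoma and 11796 ± 870 in Sulindac (SD, n = 3). These are bulk cultures, in which fewer cells of one type and less RNA per cell cannot be told apart.

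**Figure D1:**
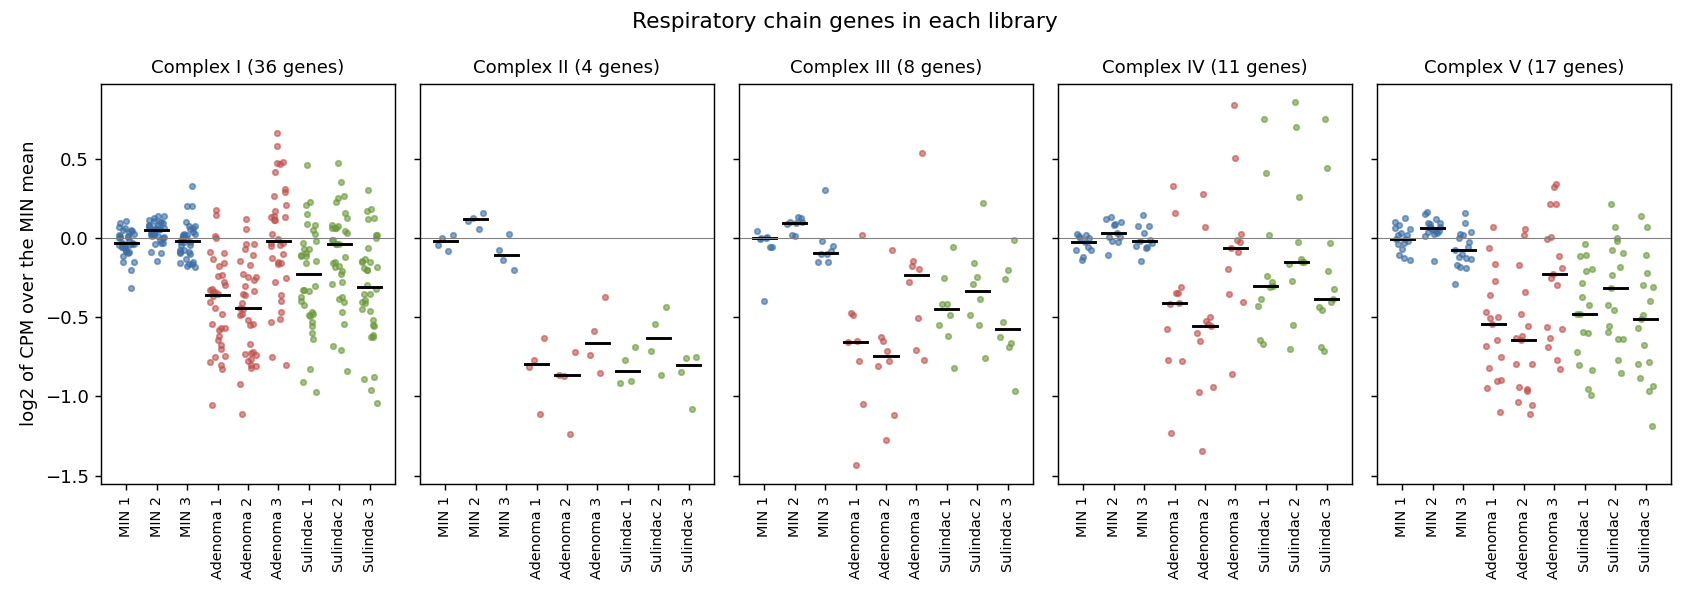
Level of each respiratory chain gene in each library, as log2 of CPM over the MIN mean (vertical axis), by complex and library (horizontal axis). Points are genes and black bars their median. Cox7a1 and the 7 genes near the detection floor are left out. The median of Adenoma replicate 3 lies above those of the other Adenoma replicates in all 5 panels, and all 4 complex II genes lie below every MIN library in the 6 other libraries.

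The markers of absorptive enterocytes moved the same way. All 8 genes of that list (Alpi, Sis, Lct, Fabp1, Fabp2, Apoa1, Apoa4 and Anpep) were lower in Adenoma than in MIN. Their summed level ran from 2844 to 4750 CPM in MIN, from 48.8 to 81.6 in Adenoma and from 11.6 to 28.9 in Sulindac, with Lct at 0 in 2 Adenoma and 2 Sulindac libraries. The part of this difference in the values below was not tested.

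Complex II, succinate dehydrogenase, is the enzyme that the chain shares with the tricarboxylic acid cycle, and all 4 of its genes were lower in Adenoma. Sdha encodes the flavoprotein that oxidises succinate and measured 605, 672 and 592 CPM in MIN replicates 1 to 3, 354, 342 and 374 in Adenoma and 330.2, 380.1 and 347 in Sulindac. Sdhb, the iron-sulfur subunit, measured 203, 223 and 218 CPM in MIN, 99.4, 91.3 and 119 in Adenoma and 115, 118 and 102 in Sulindac. For both genes every MIN library lay above the 6 others, while the Adenoma and Sulindac libraries overlapped. The log2 fold changes of Adenoma over MIN were -0.80 ± 0.11 for Sdha and -1.06 ± 0.12 for Sdhb (SE), with adjusted p of 0.000361 and 0.000131. Sdhc and Sdhd, which anchor the enzyme in the membrane and hold its quinone site, changed by -0.74 ± 0.12 (adjusted p = 0.000831) and -0.56 ± 0.13 (adjusted p = 0.00728). The call of Sdhd was lost without MIN replicate 1, MIN replicate 2, Adenoma replicate 1 or Adenoma replicate 2 (adjusted p from 0.0239 to 0.0345), and the other calls of the complex held when any 1 library was left out. In Sulindac over MIN all 4 genes were lower again, by log2 fold changes from -0.95 (Sdhb) to -0.62 (Sdhd), and none was called between Sulindac and Adenoma. The call of Sdhd in Sulindac was lost without Sulindac replicate 3 (adjusted p = 0.0102).

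**Figure D2:**
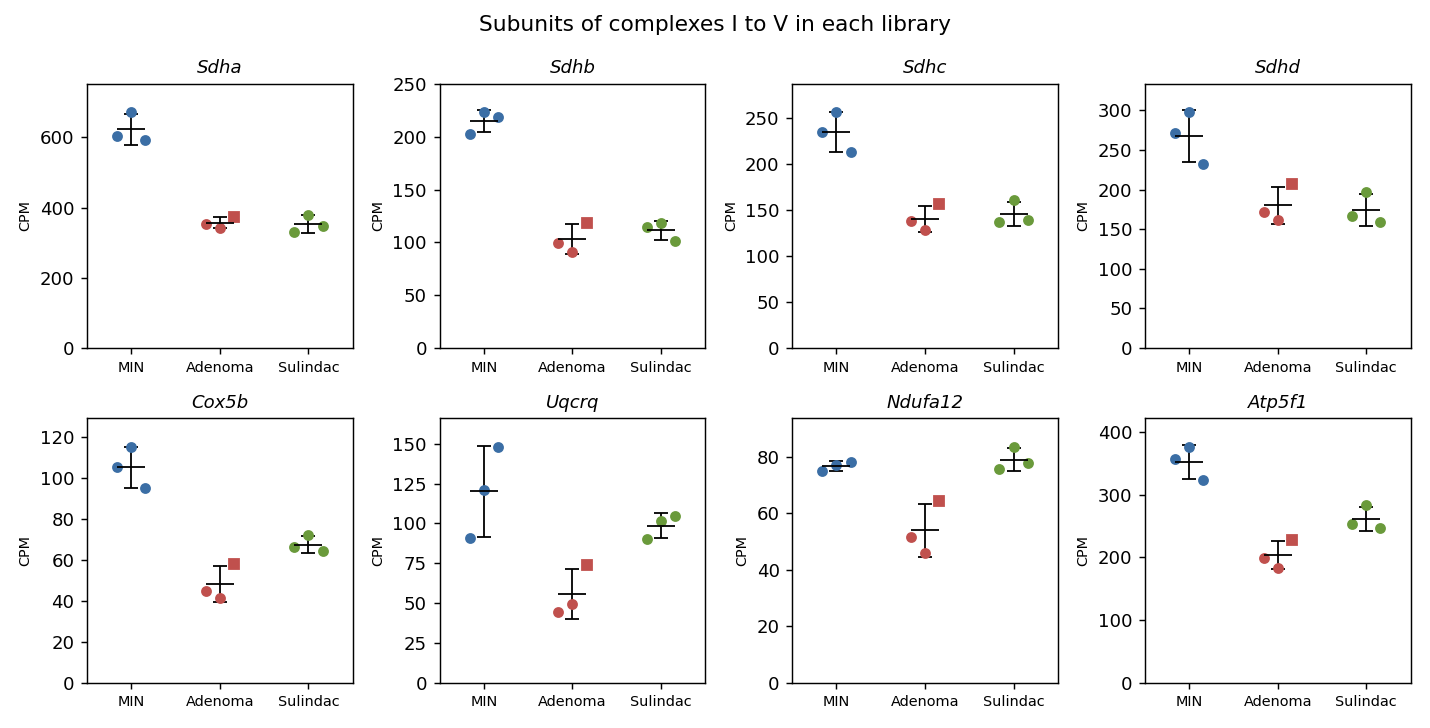
CPM (vertical axis) of 8 subunit genes in the MIN, Adenoma and Sulindac libraries (horizontal axis). Points are libraries, the square is Adenoma replicate 3, and bars are mean and SD of 3 libraries. The Sdh genes are low in both polyp groups, while Cox5b, Uqcrq, Ndufa12 and Atp5f1 are higher in every Sulindac library than in any Adenoma library. Such a separation held for 8 of the 77 members tested, against 22.5% of all genes, and Cox5b and Atp5f1 were not called with all libraries.

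Complex I, NADH dehydrogenase, had the smallest share of called genes, with 8 of 37 lower (21.6%, near the 20.1% of all genes), 0 higher and a median log2 fold change of -0.27. Without Adenoma replicate 3, 19 of the 37 were lower, against 19.6% of all genes. Without MIN replicate 2, Adenoma replicate 1 or Adenoma replicate 2, 4 were lower, against 16.1%, 17.3% and 16.9% of all genes. Ndufs1, the largest core subunit and a carrier of iron-sulfur clusters, measured 188, 203 and 163 CPM in MIN and 110.3, 105 and 106 in Adenoma, without overlap (-0.78 ± 0.11, adjusted p = 0.000373). Ndufa5, an accessory subunit of the matrix arm, fell from 42.9, 37.9 and 40 CPM to 19.4, 18.6 and 23.9 (-0.96 ± 0.13, adjusted p = 0.000316). Ndufv2, another core subunit, was lower (-0.60 ± 0.13, adjusted p = 0.00415). Its call was lost without any 1 library except Adenoma replicate 3 (adjusted p from 0.0116 to 0.0184). Ndufv1, which binds NADH beside Ndufv2, was not called and overlapped, with 171, 191 and 167 CPM in MIN and 166, 159 and 193 in Adenoma. The core genes Ndufs3, Ndufs7 and Ndufs8 were not called either (adjusted p = 0.276, 0.0604 and 0.241). Without Adenoma replicate 3, Ndufs3 and Ndufs7 were called lower (adjusted p = 0.00562 and 0.00284). Further called genes of the Nduf group included Ndufa9, Ndufa10, Ndufb9 and Ndufa4l2.

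Complex III, which passes electrons from ubiquinol to cytochrome c, had 3 of 8 genes lower and a median of -0.56. That is 37.5%, against 20.1% of all genes. The count was 7 without Adenoma replicate 3, against 19.6% of all genes. It was 1 without MIN replicate 2, under the 16.1% of all genes. Without MIN replicate 3, Adenoma replicate 1 or Adenoma replicate 2 it was 2, against 19.2%, 17.3% and 16.9% of all genes. Uqcrc1 encodes a core protein and measured 387, 432 and 388 CPM in MIN, 195, 186 and 236 in Adenoma and 228, 238 and 206 in Sulindac. Its log2 fold change was -0.97 ± 0.12 in Adenoma over MIN (adjusted p = 0.000237). The partner core gene Uqcrc2 changed by -0.62 ± 0.11 (adjusted p = 0.00164, and 0.0108 without MIN replicate 2). Uqcrq, a small subunit next to cytochrome b, varied more relative to its level than Uqcrc1 and Uqcrc2, with 91, 121 and 148 CPM in MIN, 44.4, 49.6 and 73.7 in Adenoma and 90.1, 101 and 105 in Sulindac. Its log2 fold change was -1.10 ± 0.23 (adjusted p = 0.00365), and the call was lost without MIN replicate 2 or 3 or Adenoma replicate 1 or 2 (adjusted p from 0.011 to 0.0146). The Rieske iron-sulfur gene Uqcrfs1 was not called (-0.41 ± 0.13, adjusted p = 0.0285), but was lower without Adenoma replicate 3 (adjusted p = 0.00322). Uqcrh, the hinge protein, overlapped between the groups, with 241, 274 and 237 CPM in MIN and 254, 238 and 363 in Adenoma.

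In complex IV, 6 of 14 genes tested were lower (42.9%, against 20.1% of all genes), 0 were higher, and the median was -0.40. Without Adenoma replicate 3, 11 of the 14 were lower, against 19.6% of all genes. Without MIN replicate 3 or Adenoma replicate 1, 3 were lower, near the 19.2% and 17.3% of all genes. Cox5b, a nuclear subunit on the matrix side, measured 105, 115 and 95.2 CPM in MIN and 44.9, 41.4 and 57.9 in Adenoma (-1.13 ± 0.14, adjusted p = 0.000237). The main forms Cox6a1 (-0.69 ± 0.15, adjusted p = 0.0041) and Cox7b (-0.67 ± 0.16, adjusted p = 0.00722) were also lower. Cox6a1 lost its call without MIN replicate 2 or 3 or Adenoma replicate 1 or 2 (adjusted p from 0.0103 to 0.0184), and Cox7b without any 1 library except Adenoma replicate 3 (adjusted p from 0.0141 to 0.0255). Cox4i1 (-0.44 ± 0.14, adjusted p = 0.0255) and Cox5a (-0.31 ± 0.13, adjusted p = 0.0681), both regulatory subunits, were not called, and were lower without Adenoma replicate 3 (adjusted p = 0.00251 and 0.00628). Cox6b1 and Cox7a2 were also called lower without that library (adjusted p = 0.00869 and 0.0095).

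Isoforms that are known from muscle or testis gave the largest changes of complex IV, at low levels. Cox7a1, the heart and muscle form of subunit 7a, measured 14.2, 13.7 and 17.1 CPM in MIN, 0.393, 0.392 and 0.435 in Adenoma and 0.494, 0.245 and 0.728 in Sulindac, with no overlap between MIN and either polyp group. The log2 fold change was -5.20 ± 0.22 in Adenoma over MIN (adjusted p = 3.43e-07) and -4.92 ± 0.31 in Sulindac over MIN (adjusted p = 2.69e-06). Per kilobase of transcript, Cox7a1 made 6.82 ± 0.79% of the subunit 7a transcripts (Cox7a1, Cox7a2 and Cox7a2l together) in MIN and 0.19 ± 0.02% in Adenoma (SD, n = 3). Cox6b2, a form known from testis, had 68 to 104 counts per MIN library and 0 in all 6 others, which was at least 23.3-fold lower in Adenoma and at least 21.4-fold lower in Sulindac, taking 3 counts per library as the floor. Cox6a2, the muscle form of subunit 6a, had 0.341, 0.431 and 1.46 CPM in MIN and 1, 4 and 0 counts in Adenoma (adjusted p = 0.00732), near the floor, so that its log2 fold change ran from -5.40 to -2.95 when 1 library was left out. The call of Cox6a2 was lost without MIN replicate 3, where it was highest, without Adenoma replicate 1 and without Adenoma replicate 3 (adjusted p from 0.0147 to 0.0287). Ndufa4l2, a form of Ndufa4 known to rise in hypoxia, measured 2.41, 0.496 and 0.351 CPM in MIN and 0 to 2 counts per Adenoma library. It was at least 12.8-fold lower, mostly through MIN replicate 1, and its call was lost without any 1 Adenoma library (adjusted p from 0.0125 to 0.029). The muscle markers Myh11, Des, Ckm and Actn2 summed to at most 0.676 CPM in MIN, where these isoforms were highest, and to 0.797 to 1.57 in the other groups. The isoform genes Cox4i2, Cox7b2, Cox8b and Cox8c never passed the low-count filter and lay at 0.12 CPM or less in every library.

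Cox8a and Cox7a2l went against the rest of the complex. Cox8a, the common form of the smallest nuclear subunit, measured 154, 168 and 188 CPM in MIN, 214, 206 and 305 in Adenoma and 286, 309 and 287 in Sulindac. Every Sulindac library lay above every MIN library (0.79 ± 0.09, adjusted p = 0.000111), and Adenoma over MIN missed the threshold (0.51 ± 0.17, adjusted p = 0.0306). With library size alone as the scale, Cox8a was called higher in Adenoma than in MIN (adjusted p = 0.00628). Cox7a2l, whose product joins complexes III and IV into supercomplexes, measured 289.7, 334 and 322 CPM in MIN, 351, 331 and 447 in Adenoma and 419.8, 513 and 428 in Sulindac. It was higher in Sulindac than in MIN (0.53 ± 0.10, adjusted p = 0.00204) and not called in Adenoma over MIN (0.26 ± 0.14, adjusted p = 0.155). Of its 50-base stretches, 13.8% also occur in the pseudogene Gm6969, so part of its counts could belong there. Part of the counts of other members could also belong elsewhere. Ndufa12 shared 17.7% of its stretches with the pseudogene Gm15920. Cox5b shared 11.9% with Gm11273 and Uqcrc2 17.6% with Pdzd9, neither of them listed as a pseudogene. Atp5o shared 41.1%, Ndufb9 15.6% and Atp5f1 14.3% with other genes.

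**Figure D3:**
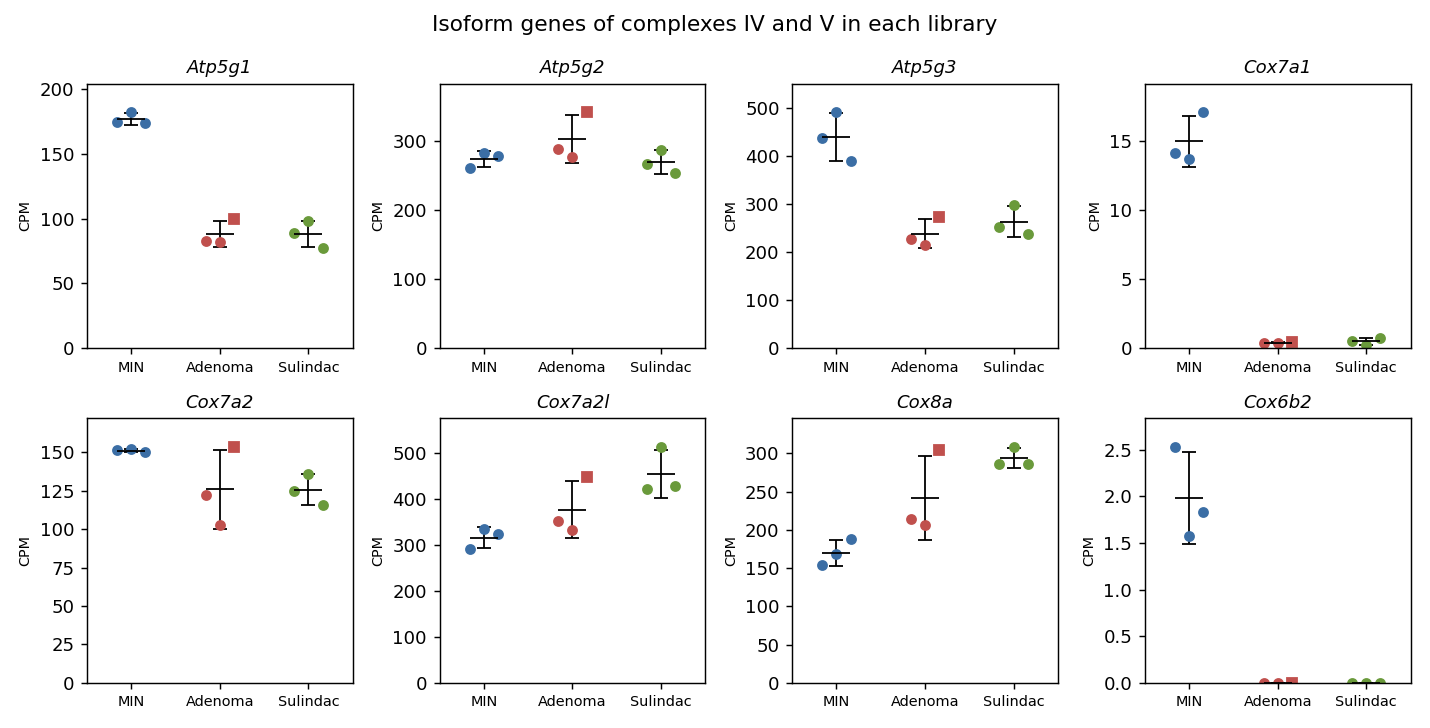
CPM (vertical axis) of isoform genes in the MIN, Adenoma and Sulindac libraries (horizontal axis). Points are libraries, the square is Adenoma replicate 3, and bars are mean and SD of 3 libraries. Cox7a1 and Cox6b2 are near 0 outside MIN, Cox8a and Cox7a2l have their highest mean in Sulindac, and Atp5g2 does not follow Atp5g1 and Atp5g3.

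In complex V, 6 of the 17 genes were lower in Adenoma (35.3%, against 20.1% of all genes), 0 were higher, and the median was -0.46. Without Adenoma replicate 3, 12 of the 17 were lower, against 19.6% of all genes. Without any other 1 library 5 or 6 were lower, against 16.1% to 19.2% of all genes. The catalytic head is built from subunits alpha and beta, and Atp5b, which encodes beta, measured 2137, 2332 and 1964 CPM in MIN, 1146, 1098 and 1256 in Adenoma and 1106, 1256 and 1099 in Sulindac. Its log2 fold change was -0.87 ± 0.13 (adjusted p = 0.000612). Atp5a1, which encodes alpha, changed by -0.67 ± 0.15 (adjusted p = 0.00592), and the call was lost without MIN replicate 1 or 2 or Adenoma replicate 1 or 2 (adjusted p from 0.0215 to 0.0303). Atp5c1, which encodes the rotating gamma subunit, was not called (-0.46 ± 0.13, adjusted p = 0.0168), but was lower without Adenoma replicate 3 (adjusted p = 0.00319). Subunits of the stalk, Atp5o (log2 fold change -0.83) and Atp5f1 (-0.79), were lower. Atp5s and Atp5sl, which encode no subunit, were not called in any comparison.

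Subunit c forms the rotor ring and is encoded by 3 genes whose mature product is the same protein. They did not move alike. Atp5g1 measured 174, 182 and 174 CPM in MIN and 82.7, 81.8 and 99.8 in Adenoma (-1.003 ± 0.11, adjusted p = 9.94e-05). Atp5g3 measured 437, 491 and 389.9 CPM in MIN and 228, 214 and 273 in Adenoma (-0.88 ± 0.14, adjusted p = 0.000667). Atp5g2 measured 261, 284 and 278 CPM in MIN and 288, 278 and 343 in Adenoma, and was not called (0.14 ± 0.12, adjusted p = 0.327). Per kilobase of transcript, Atp5g2 made 38.0 ± 2.7% of the Atp5g2 and Atp5g3 transcripts in MIN, 55.4 ± 0.4% in Adenoma and 50.2 ± 1.5% in Sulindac (SD, n = 3), with no overlap between any of the groups. Reads could be shared with a near copy, since 38.3% of the 50-base stretches of Atp5g2 occur elsewhere, mostly in Gm10175, against 11.1% for Atp5g1 and 0% for Atp5g3.

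The promoters of these genes are shown because the genes make the same subunit and differ in the counts, with that of Sdhd as a called gene of complex II that shares a motif with Atp5g3. The sequences are from RefSeq on build GRCm38.p6, 250 bases before to 50 after the transcript start, written 5′ to 3′ on the gene's strand, and their build is not that of the counts. Capitals mark a motif.
Atp5g1, chr11:96075582-96075881, minus strand: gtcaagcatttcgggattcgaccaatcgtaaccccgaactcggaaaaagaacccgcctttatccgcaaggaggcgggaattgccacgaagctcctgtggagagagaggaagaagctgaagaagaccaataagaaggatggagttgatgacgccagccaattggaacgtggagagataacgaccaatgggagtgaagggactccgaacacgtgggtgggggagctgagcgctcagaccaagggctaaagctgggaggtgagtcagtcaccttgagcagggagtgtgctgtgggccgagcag
Atp5g2, chr15:102670998-102671297, minus strand: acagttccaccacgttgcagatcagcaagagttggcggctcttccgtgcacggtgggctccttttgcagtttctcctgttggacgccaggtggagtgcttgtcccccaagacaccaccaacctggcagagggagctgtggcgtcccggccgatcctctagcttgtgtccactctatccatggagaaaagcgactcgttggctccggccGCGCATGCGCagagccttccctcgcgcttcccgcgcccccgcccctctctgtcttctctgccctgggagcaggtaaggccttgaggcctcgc
Atp5g3, chr2:73911277-73911576, minus strand: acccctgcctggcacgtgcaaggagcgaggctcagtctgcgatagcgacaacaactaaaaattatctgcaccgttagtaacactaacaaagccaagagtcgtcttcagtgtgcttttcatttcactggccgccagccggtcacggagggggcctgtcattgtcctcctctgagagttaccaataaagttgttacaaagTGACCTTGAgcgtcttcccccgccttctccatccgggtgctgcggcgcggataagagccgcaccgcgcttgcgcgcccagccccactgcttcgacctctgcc
Sdhd, chr9:50603800-50604099, minus strand: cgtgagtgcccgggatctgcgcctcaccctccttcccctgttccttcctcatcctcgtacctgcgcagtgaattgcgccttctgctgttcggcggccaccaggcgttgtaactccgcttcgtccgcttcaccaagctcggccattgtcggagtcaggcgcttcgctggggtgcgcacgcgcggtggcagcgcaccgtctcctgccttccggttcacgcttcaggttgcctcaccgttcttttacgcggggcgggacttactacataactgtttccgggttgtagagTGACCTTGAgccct
The capitals are GCGCATGCG, letters bound by NRF1, in Atp5g2, where the match on one strand overlaps that on the other, and TCAAGGTCA, letters bound by ESRRA, read on the opposite strand in Atp5g3 and Sdhd. Atp5g1 held neither, nor CCGGAAGT (ETS factors such as GABPA) nor AAGATGGCG (YY1). Both strands were searched. Of the 69 members with a promoter in the table, 8 (11.6%) held the NRF1 letters. Their share was 1.95% over all 27025 genes with a promoter and 2.59% over the 17762 of the count table. The YY1 letters stood in 8 members (11.6%, against 1.64% and 2.16% over the same sets). The ETS letters stood in 5 (7.25%, against 4.31% and 5.74%) and the ESRRA letters in 2 (2.9%, against 0.466% and 0.377%). Of the members called lower in Adenoma, 18 had a promoter in the table, and Uqcrc1 and Cox6a1 of these held the NRF1 letters, Ndufa9 the YY1 letters, none the ETS letters, and Atp5g3 and Sdhd the ESRRA letters. Of the 51 other members with a promoter, 6 held the NRF1 letters, 7 the YY1 letters, 5 the ETS letters and 0 the ESRRA letters. A match describes these letters only.

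**Figure D4:**
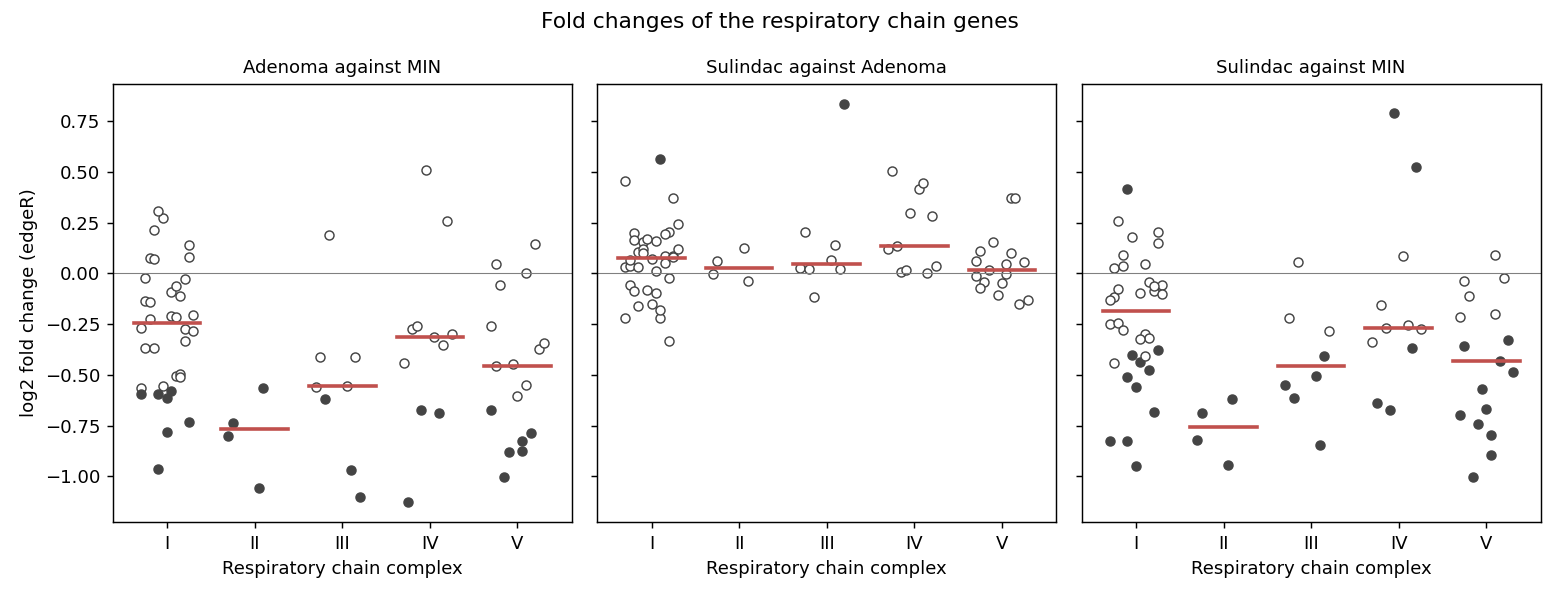
Log2 fold change by edgeR (vertical axis) of the respiratory chain genes by complex (horizontal axis) in the 3 comparisons. Filled points were called at an FDR of 1%, open points were not, and red bars are medians of the points drawn. Cox7a1 and the genes near the detection floor are left out. All called points are below 0 in Adenoma against MIN, 2 points are called above 0 in Sulindac against Adenoma, and 3 are called above 0 in Sulindac against MIN.

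Between Sulindac and Adenoma organoids few members differed. Of the 77 members tested, 2 were higher in Sulindac and 0 were lower by edgeR's test, with 9 at an unadjusted p under 0.05, and the median log2 fold change was 0.06. Among all 12962 genes tested, 8.32% were higher and 9.10% were lower, so the members' share of 2.6% lay under the background. Uqcrq rose by 0.84 ± 0.17 (adjusted p = 0.00716), from values under 74 CPM in Adenoma to 90 or more in every Sulindac library. Ndufa12, an accessory subunit at the matrix arm of complex I, measured 74.8, 77.2 and 78.1 CPM in MIN, 51.7, 46 and 64.4 in Adenoma and 75.8, 83.6 and 77.8 in Sulindac (0.56 ± 0.12, adjusted p = 0.0093). Both calls were lost without any 1 library except Adenoma replicate 3 (adjusted p from 0.0166 to 0.036). Without Adenoma replicate 3, 11 of the 77 were higher and 0 lower, against 10.7% higher of all genes, and the median was 0.20. The 9 members added were Atp5d, Atp5f1, Cox5a, Cox5b, Cox6a1, Cox8a, Ndufa13, Ndufb9 and Ndufb10. Of these, Cox5b changed by 0.50 ± 0.13 with all libraries (adjusted p = 0.017). None of the Sdh genes was called in either fit. DESeq2 called 6 members higher and 0 lower, against 13.7% higher and 13.6% lower of all genes. With library size alone as the scale, 0 members were called, the median was -0.10 over the members and -0.18 over all genes, and the higher share of all calls was 23.3% against 47.8% with TMM.

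Sulindac organoids were compared with MIN in a fit that uses no Adenoma library. It shares the MIN samples with the comparison of Adenoma and MIN, so the counts of both are not independent. Of the 80 members tested, 37 (46.2%) were lower in Sulindac and 3 were higher, against 26.8% lower and 23.0% higher of 13551 genes, and the median was -0.33. By complex, 11 of 37 were lower in complex I (29.7%, near the 26.8% of all genes). The count was 4 of 4 in complex II, 5 of 8 in complex III, 6 of 14 in complex IV and 11 of 17 in complex V. Without Sulindac replicate 1 or 3, 6 of the 37 in complex I were lower, under the 22.1% and 21% of all genes. Without Sulindac replicate 3, 23 of the 80 members were lower, against 21% of all genes. The higher genes were Cox8a and Cox7a2l, given above, and Ndufb8, an accessory subunit of the membrane arm of complex I, with 112, 119.9 and 115 CPM in MIN and 159, 160.4 and 142 in Sulindac (0.42 ± 0.08, adjusted p = 0.00195). The call of Ndufb8 was lost without MIN replicate 1 or Sulindac replicate 1 (adjusted p = 0.0106 and 0.01). The core genes with the largest changes were Ndufs1 (-0.95 ± 0.10, adjusted p = 5.67e-05), Sdhb (-0.95 ± 0.09, adjusted p = 2.64e-05), Atp5b (-0.89 ± 0.10, adjusted p = 0.000104) and Uqcrc1 (-0.84 ± 0.09, adjusted p = 6.41e-05). Cox5b was still lower than in MIN (-0.64 ± 0.09, adjusted p = 0.000318), whereas Ndufa12 and Uqcrq were not called (adjusted p = 0.609 and 0.162). The gamma gene Atp5c1 was just inside the threshold (adjusted p = 0.00954) and lost its call without any 1 library (adjusted p up to 0.0483).

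Transcript length ran with the share of calls. In Adenoma over MIN, 10 of the 49 members with transcripts under 1000 bases were lower (median -0.31), and 17 of the 31 longer ones (median -0.58). The share of the shorter ones lay near the 20.1% lower of all genes. In Sulindac over MIN the counts were 18 of 49 and 19 of 31, against 26.8% of all genes. With a length trend removed from each library, an alternative chosen after seeing the data, 53 members were lower in Adenoma and 1 was higher. Of all genes, 23.3% were lower and 20.4% higher in that fit.

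The genes around the chain were read from lists. Among all genes tested in Adenoma over MIN, 20.1% were lower and 18.5% were higher. The tricarboxylic acid cycle and pyruvate dehydrogenase feed the chain with NADH and succinate, and 14 of their 17 genes were lower in Adenoma than in MIN and 0 higher, with a median of -0.67. The largest changes were those of the malate dehydrogenase gene Mdh2 (-1.49 ± 0.13, adjusted p = 1.85e-05) and the succinyl-CoA ligase gene Suclg1 (-1.34 ± 0.11, adjusted p = 2.09e-05). Among 22 carriers and exchangers, 14 were lower and 0 higher, with Pdss1, which makes the side chain of ubiquinone, at 40.4, 41.2 and 31.2 CPM in MIN and 4.6, 3.58 and 3.19 in Adenoma (-3.30 ± 0.19, adjusted p = 1.86e-06). The cytochrome c gene Cycs (-0.90) and Cyc1 (-1.05), the cytochrome of complex III, were both lower. Of 43 assembly factors 16 were lower, led by the heme enzyme Cox10 (-1.41) and the mitochondrial mRNA binding gene Lrpprc (-1.33), and 1 was higher, Sdhaf2 (1.02 ± 0.11, adjusted p = 9.81e-05), which attaches the flavin to Sdha. Import and chaperone genes were lower in 13 of 28, and mitochondrial ribosomal protein genes in 9 of 77 with 3 higher, a share of 11.7% lower against 20.1% of all genes. The ribosomal sum was 3450 to 3712 CPM in MIN, 2919 and 2818 in Adenoma replicates 1 and 2 and 3668 in Adenoma replicate 3. Of the 77 ribosomal protein genes 20 were lower without Adenoma replicate 3 (26.0%, against 19.6% of all genes). Without MIN replicate 1 or 2 or Adenoma replicate 1 or 2 the count was 4 (5.19%, against 16.1% to 17.3%). In the other lists, 14 tricarboxylic acid cycle genes (82.4%) and 17 carriers (77.3%) were lower without Adenoma replicate 3, against 19.6% of all genes. The same fit had 14 assembly factors (32.6%) and 17 import genes (60.7%) lower. Without any other 1 library, 12 or 13 tricarboxylic acid cycle genes, 10 to 14 carriers and 9 or 10 import genes were lower. The share of all genes was then 16.1% to 19.2%. The assembly count was 8 without MIN replicate 2 or Adenoma replicate 2 (18.6%, against 16.1% and 16.9% of all genes). It was 9 without MIN replicate 1 (20.9%, against 16.8%) and 10 without Adenoma replicate 1 (23.3%, against 17.3%).

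Of 17 transcriptional regulators of mitochondrial genes, 5 were lower (29.4%, against 20.1% of all genes) and 1 higher (5.88%, against 18.5%) in Adenoma. The counts were 5 lower and 2 higher without Adenoma replicate 3. Without MIN replicate 1 or 2 or Adenoma replicate 1 or 2, 3 were lower (17.6%, against 16.1% to 17.3% of all genes). The coactivators Ppargc1a and Ppargc1b measured 14.1, 12.5 and 21 CPM and 19.2, 20.7 and 20.4 CPM in MIN against 4.02, 2.99 and 1.83 and 4.41, 4.14 and 3.22 in Adenoma. Their log2 fold changes were -2.43 ± 0.32 and -2.35 ± 0.17 (adjusted p = 0.000267 and 6.97e-06). Esrra, the receptor that they act on (-0.50 ± 0.12, adjusted p = 0.00828), and the mitochondrial DNA packaging factor Tfam (-0.47 ± 0.11, adjusted p = 0.00548) were lower. Esrrg, a relative of Esrra, measured 23.4, 24.3 and 17.4 CPM in MIN and 0, 0 and 1 counts in Adenoma. Nrf1, Gabpa and Pprc1 were not called (adjusted p = 0.317, 0.0691 and 0.0199), and the helicase gene Peo1 was higher (0.55 ± 0.10, adjusted p = 0.00202).

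In Sulindac over Adenoma, 8.32% of all genes were higher and 9.10% lower. The tricarboxylic acid cycle list had 2 of 17 higher (11.8%), the citrate synthase gene Cs (0.57 ± 0.10, adjusted p = 0.00385) and Pdha1 (0.53 ± 0.12, adjusted p = 0.00874). Of the 22 carriers 3 were higher (13.6%), namely the ADP/ATP carrier Slc25a5 (0.61 ± 0.11, adjusted p = 0.00455), the phosphate carrier Slc25a3 (0.58 ± 0.10, adjusted p = 0.00328) and Coq5 (0.48 ± 0.10, adjusted p = 0.00646). The outer membrane channel gene Vdac1 was the 1 higher gene of 28 import genes (0.55 ± 0.09, adjusted p = 0.00331), and none of the 77 mitochondrial ribosomal protein genes was called. Of the 43 assembly factors 3 were lower and 1 higher. The lower ones included Foxred1 (-0.90 ± 0.10, adjusted p = 0.000619) and Nubpl (-0.68 ± 0.13, adjusted p = 0.00511), both of which serve the assembly of complex I. Of the 16 regulators tested, Mterf1a (-1.06 ± 0.23, adjusted p = 0.00842) and the mitochondrial transcription factor Tfb1m (-0.79 ± 0.15, adjusted p = 0.0058) were lower. Those are 12.5% of the list. When Adenoma replicate 3 was left out, 2 tricarboxylic acid cycle genes, 4 carriers, 4 assembly factors, 6 import genes, 5 ribosomal protein genes and 1 regulator were higher, against 10.7% of all genes, while 3 assembly factors and 2 regulators were lower. Without any 1 Sulindac library, or without Adenoma replicate 2, none of the carriers, import genes, regulators and tricarboxylic acid cycle genes was called, whereas 1 carrier and 2 tricarboxylic acid cycle genes were called without Adenoma replicate 1. Slc25a3, Cs and Vdac1 were not called between Sulindac and MIN (adjusted p = 0.768, 0.613 and 0.526). Against MIN, where 26.8% of all genes were lower and 23.0% higher, Sulindac organoids had 12 of the 17 tricarboxylic acid cycle genes lower and 0 higher. Of the 22 carriers 12 were lower and 1 higher, of the 43 assembly factors 18 and 2, of the 28 import genes 15 and 1, and of the 17 regulators 6 and 1. Of the 77 ribosomal protein genes 20 were lower, a share of 26.0% that lay at the background, and 3 were higher. The ribosomal count fell to 10 without Sulindac replicate 3 (13%, against 21% of all genes). It was 12 without Sulindac replicate 1 (15.6%, against 22.1%) and 13 without MIN replicate 2 (16.9%, against 21.7%).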

How the data were processed

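Gene expression of 9 organoid samples from mice was measured by RNA-seq, and titles gave the 3 groups of 3. The authors deposited raw counts, whole numbers of reads per gene symbol, in 1 table of 23955 rows without normalization. Bowtie2 2.2.4, RSEM and the build mm9 are named in the submitters' processing notes, while the annotation and the strand setting are not given in the sources used here. MIN replicate 1 was taken from the column that is the sum of its runs in all 23955 rows. In 27 rows the symbol had turned into a date.

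From these counts, rows were filtered with filterByExpr, scaled by TMM and tested in R 4.3.3 by the robust quasi-likelihood F test of edgeR 4.0.16. Each fit held the libraries of its own pair of groups. Benjamini-Hochberg adjustment ran over all rows tested, at an FDR of 1%. The SE was derived from F, as |log2 fold change| over its root. CPM uses TMM factors over all 9 samples. The code was tested on simulated counts. The p-values cover the spread between these 3 samples a group, and floors cover counting error only. Transcript lengths (APPRIS principal transcript) and shared 50-base stretches came from GENCODE M21, and promoters from RefSeq (GRCm38.p6).

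The members, lists and rules were chosen with earlier results of these data known. Members named were core subunits, isoform groups, the 2 largest non-overlapping calls per complex and comparison, and calls against the direction of their complex. For other lists the rule took the 2 largest calls per list and comparison and the main regulators, of which some are left unprinted. Of the members under the rule, 1 is not reported here. Outside the rule, Uqcrh, Atp5d, Atp5f1, Atp5o, Atp5s, Atp5sl, Ndufa9, Ndufa10, Ndufa13, Ndufb9, Ndufb10, Coq5, Peo1 and Sdhaf2 were named after their values were seen. Alternatives were RLE factors, library size alone, TMM without the members, other count filters, a single fit of 9 samples, the replicate block, DESeq2 1.42.0, other thresholds, leaving out each sample and, added after the data were seen, a length trend per library and leaving out each sample for the other gene lists.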

Additional observations from a re-analysis of the deposited data

How the results depend on the processing

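Members lower in Adenoma than in MIN numbered 27, and 53 with a length trend removed per library, where 23.3% of all genes were lower. The count was 42 at an FDR of 5% and 8 when an absolute log2 fold change over 1 was also required. Leaving out 1 library gave 17 to 53. Members higher in Adenoma numbered 0, and 1 with library size alone, with the length trend and at an FDR of 5%, while leaving out 1 library gave 0. Members higher in Sulindac than in Adenoma numbered 2, and 0 with library size alone and with the log2 limit of 1. The count was 1 with at least 10 counts in every sample, in the single fit of 9 samples and with the replicate block. It was 6 with DESeq2, 8 at an FDR of 5% and 12 with the length trend. With the length trend, 13.4% of all genes were higher. Leaving out 1 library gave 0 to 11. Those lower numbered 0 under all alternatives run. Members higher in Sulindac than in MIN numbered 3, and 5 at an FDR of 5% and 0 with the log2 limit of 1, and 2 to 3 without 1 library. Those lower numbered 37, 5 with the log2 limit of 1, and 23 to 37 without 1 library. The cause of these changes was not tested. All other alternatives gave counts within 1.5 times those reported.

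With the replicate number as a block, members lower in Adenoma numbered 25, members higher in Sulindac than in Adenoma 1 and members lower in Sulindac than in MIN 41. Same-numbered libraries correlated from -0.05 to 0.32 in their deviations and not all above 0.1. With 3 libraries a group and no statement of shared mice, this cannot decide whether they are paired. Each library correlated best with its own number in Adenoma and MIN, and not each in the comparisons with Sulindac, which is a hint from the data and not from the design.

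Of the 27 members called in Adenoma over MIN, 15 kept their call whichever library was left out, and of the 40 in Sulindac over MIN, 25 did. Of the 49 called fold changes of named members, 0 changed sign in any alternative. Of the 55 uncalled ones, 24 changed sign in at least 1 alternative, at absolute log2 values of at most 0.16. Library size alone moved the median of all genes from -0.01 to 0.12 in Adenoma over MIN and from -0.01 to -0.18 in Sulindac over Adenoma.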
